A study of Mus musculus with 14 samples.

Results

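Oxidative phosphorylation genes, those whose products form the respiratory chain and the ATP synthase of mitochondria, were followed in mouse bone-marrow monocytes exposed to interleukin-4 (IL-4). Rows of a gene count table were taken where the symbol named a protein gene of the mitochondrial DNA, a subunit or assembly factor whose name begins with Nduf, Sdh, Uqcr, Cox4 to Cox8 or Atp5, or the cytochrome Cyc1. Of 121 such rows, 3 X-linked ones (Ndufa1, Ndufb11 and Cox7b) were left out, and 22 had a mean CPM (counts scaled to the library's size) below 1 over the 14 libraries. The remaining 96 genes, of 55487 rows in the table, comprised 86 encoded in the nucleus and 10 encoded in mitochondrial DNA. All 96 were among the 14754 genes tested, so none was lost to the filter on low counts.

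The respiratory chain passes electrons from NADH and succinate through complexes I, II, III and IV to oxygen and pumps protons as it does so, and complex V, the ATP synthase, uses the returning protons to make ATP. Every complex except complex II mixes subunits made in the cytosol from nuclear genes with a few subunits made inside the organelle from mitochondrial DNA, which is transcribed by its own polymerase as long transcripts that are cut into messages. In macrophages, IL-4 is known for alternative activation, which is accompanied over longer exposures by oxidative metabolism and by induction of the coactivator Ppargc1b.

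The groups were AhR-deficient monocytes with IL-4 at 20 ng/mL (3 libraries), AhR-deficient monocytes in medium (3), wild-type monocytes with the same dose of IL-4 (4) and wild-type monocytes in medium (4), all after 3 h of culture. AhR is the aryl hydrocarbon receptor, a ligand-activated transcription factor. Monocytes were isolated from leg bone marrow with a kit and, per the labels, were 90 to 95% pure. The labels name neither the allele nor the mice or pools behind each library, so p-values measure the spread between these libraries. Libraries from 1 number of the titles (4, 5 and 6 in AhR-deficient cells, 1, 2, 3 and 7 in wild type) are compared as pairs where that changes a call.

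Total counts ran from 33432502 to 42885079 per library. All 10 monocyte markers were above 1 CPM and summed to 13754 to 24486 CPM. Of the listed markers of other cell types, summed neutrophil markers reached 380 to 1177 CPM and eosinophil and basophil markers 56.0 to 356 CPM. B cell markers summed to 143 to 297 CPM and T and NK cell markers to 0.838 to 4.53 CPM. Above 1 CPM were 11 of 11 neutrophil, 8 of 8 eosinophil and basophil, 2 of 6 B cell and 0 of 6 T and NK cell markers. The Ahr transcript was not lower in the AhR-deficient libraries, at 41.8 ± 4.5 CPM with IL-4 and 20.1 ± 5.0 CPM in medium (SD, n = 3 each), against 26.1 ± 1.2 and 13.1 ± 1.4 CPM in wild-type libraries (SD, n = 4 each), so it does not check the genotype label. Xist, transcribed from the inactive X, was at 979 to 1265 CPM in the AhR-deficient libraries and at most 2.16 CPM in the wild-type ones, and Y-linked Ddx3y was at 0 in the AhR-deficient libraries and 119 to 141 CPM in the wild-type ones. Genotype and the sex of the cells therefore cannot be told apart in any comparison between genotypes.

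Several mitochondrial genes have copies of their sequence in the nuclear genome. Each level is given here beside the share of the gene found in annotated transcripts of other genes. Sequence outside annotated transcripts was not searched, so a gene with no shared window may still have a copy there. A stretch of chromosome 1, at chr1:24611535-24616197 (GRCm38), carries 7 annotated pseudogene copies of mitochondrial genes. Of the 100-base windows of mt-Co3, mt-Co2 and mt-Atp6, a length equal to that of the reads, 99.9%, 99.5% and 99.5% occurred base for base in a transcript of another gene, and these genes averaged 4.32, 4.15 and 2.85 CPM. The next most shared, mt-Nd4l at 98.5% and mt-Nd3 at 97.6%, fell under the minimum at 0.212 and 0.473 CPM, as did mt-Atp8 at 0.373 CPM, for which no annotated transcript shared a window. By contrast mt-Nd4 (60.8% shared) averaged 592 CPM, mt-Co1 (30.8%) 4623 CPM and mt-Nd2 (3.19%) 556 CPM. With no shared window, mt-Nd1, mt-Nd5 and mt-Cytb were at 957, 1295 and 1303 CPM, but mt-Nd6, also with none, was at 7.22 CPM. A low level thus did not always go with shared windows. The sources used here do not say how reads with several matching places were counted. A read from the opening 100 bases of mt-Co2 matches its copy Gm28661 equally: the 2 stretches are identical, as were all 681 aligned bases.
mt-Co2 (chrM:7013-7112, plus strand, GRCm38): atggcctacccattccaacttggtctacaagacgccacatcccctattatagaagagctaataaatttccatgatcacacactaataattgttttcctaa
Gm28661 (chr1:24615466-24615565, minus strand, GRCm38): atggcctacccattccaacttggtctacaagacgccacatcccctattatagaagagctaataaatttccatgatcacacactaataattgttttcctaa
For mt-Nd2 and its chromosome 2 copy Gm13339, 17 of 510 aligned bases differed, and the stretch below holds 6 of the differences, in capitals.
mt-Nd2 (chrM:4672-4771, plus strand, GRCm38): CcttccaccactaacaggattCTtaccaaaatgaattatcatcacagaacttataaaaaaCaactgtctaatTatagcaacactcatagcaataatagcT
Gm13339 (chr2:22590204-22590303, minus strand, GRCm38): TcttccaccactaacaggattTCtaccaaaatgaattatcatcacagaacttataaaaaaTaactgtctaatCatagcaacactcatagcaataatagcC
Values of mt-Co2, mt-Co3 and mt-Atp6 are accordingly uncertain, and those of mt-Nd4 and mt-Co1, with 60.8% and 30.8% of windows shared, are uncertain in part. The mitochondrial results turn on mt-Nd1, mt-Nd2, mt-Nd4, mt-Nd5, mt-Cytb and mt-Co1.

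**Figure D1:**
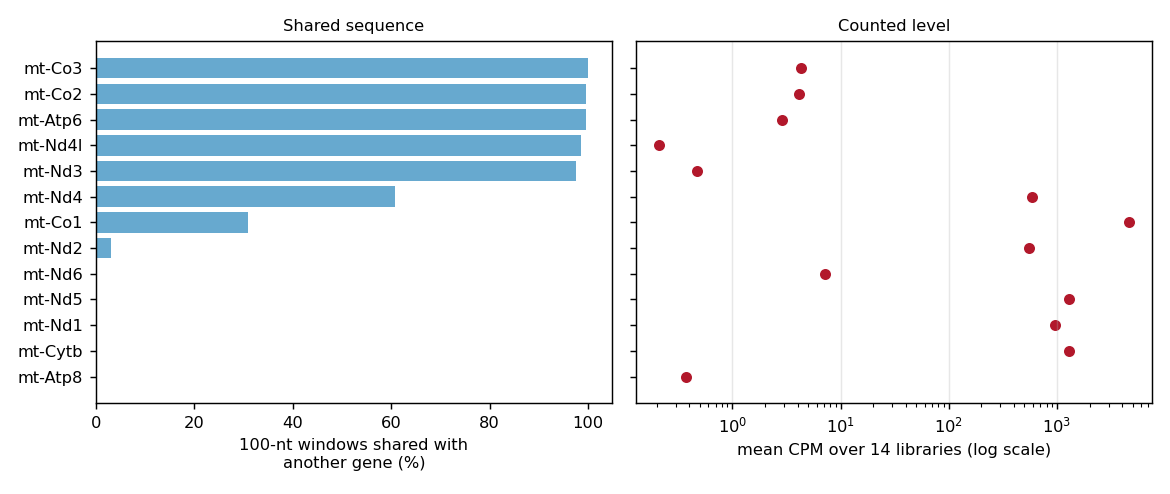
Left, share of each mitochondrial protein gene's 100-base windows that occur in a transcript of another gene (percent, bars); right, its mean CPM over the 14 libraries on a log scale (points). The 5 genes with more than 97% of windows shared sit at 0.212 to 4.32 CPM, while mt-Co1, mt-Cytb, mt-Nd5, mt-Nd1, mt-Nd4 and mt-Nd2 sit at 556 to 4623 CPM. With no shared window, mt-Nd6 and mt-Atp8 sit at 7.22 and 0.373 CPM.

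Of the 10 mitochondrial members, 6 were more abundant per length than every nuclear member, and mt-Nd6, mt-Co2, mt-Co3 and mt-Atp6 ranked 70 or lower of the 96. Scaled to exon length, mt-Co1, which encodes a catalytic subunit of complex IV, was at 2993 CPM per kb, mt-Cytb of complex III at 1138 and mt-Nd1 of complex I at 999. The highest nuclear members on this scale were Atp5a1 and Atp5b, the alpha and beta subunits of the ATP synthase (202 and 164 CPM per kb), Cox8a (201), Cox4i1 (171) and Cox6a1 (164), the last 3 being subunits of complex IV. The sole member transcribed from the opposite strand of mitochondrial DNA, mt-Nd6, averaged 7.22 CPM. At the threshold, Cox6a2 (1.35 CPM), Atp5s (1.49) and Ndufaf6 (2.67) were the lowest included, and mt-Nd3, mt-Atp8 and Cox7a1 (0.297) the highest excluded. Also under 1 CPM were Cox4i2, Ndufa4l2, Cox8b, Cox8c and Cox7b2, tissue-restricted or alternative isoforms, a second row of Atp5o at 0, and 12 pseudogenes.

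Summed over members and scaled by TMM, mitochondrial transcripts were lower with IL-4 in every numbered pair of both genotypes. As a share of raw totals, however, number 4 was higher with IL-4 (0.859% against 0.844%). The mitochondrial sum, and the ratio made from it, weigh mt-Co1 most, which averaged 4623 CPM and has 30.8% of its windows shared. The nuclear sum was lower with IL-4 in every AhR-deficient pair and higher in every wild-type pair. The AhR-deficient difference turned positive as a share of raw totals (a mean log2 difference of 0.0409, against -0.0092 scaled by TMM). Scaled by TMM it was near the median log2 change of all genes there, -0.0091.

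In AhR-deficient cells the mitochondrial members summed to 8640, 8876 and 8506 CPM with IL-4 (numbers 4, 5 and 6), against 8860, 9166 and 9168 CPM in medium. The nuclear members summed to 6816, 6715 and 7093 CPM with IL-4, against 6891, 6740 and 7124 CPM in medium. In wild-type cells the mitochondrial members summed to 8516, 9859, 9287 and 9624 CPM with IL-4 (numbers 1, 2, 3 and 7), against 9871, 10111, 10114 and 10183 CPM in medium. The nuclear members summed to 7159, 6680, 6881 and 7070 CPM with IL-4, against 7029, 6613, 6590 and 6563 CPM in medium. The IL-4 libraries were lower in the first quantity and higher in the second in 4 of 4 pairs, but the nuclear sums of the groups overlapped. The nuclear difference was widest in number 7 (0.11 on the log2 scale), and without that number the mean wild-type difference was 0.0345, against 0.0527 with it. Deviations of the number 7 libraries from their group means also correlated least of all pairs (r = 0.165). In number 7 summed neutrophil markers were at 880 CPM with IL-4 against 476 CPM in medium, eosinophil and basophil markers at 292 against 146 CPM and erythroid markers at 23.4 against 114 CPM; their part in the result was not tested.

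The ratio of mitochondrial to nuclear sums was 1.26 ± 0.06 with IL-4 and 1.31 ± 0.04 in medium in AhR-deficient cells (SD, n = 3 each). It was 1.34 ± 0.12 with IL-4 and 1.505 ± 0.068 in medium in wild-type cells (SD, n = 4 each). Within numbers the log2 ratio was lower with IL-4 by a mean of -0.05 in AhR-deficient and -0.17 in wild-type cells, in 3 of 3 and 4 of 4 pairs. Fewer mitochondrial transcripts per cell and a change in the mixture of cells cannot be told apart in bulk libraries.

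**Figure D2:**
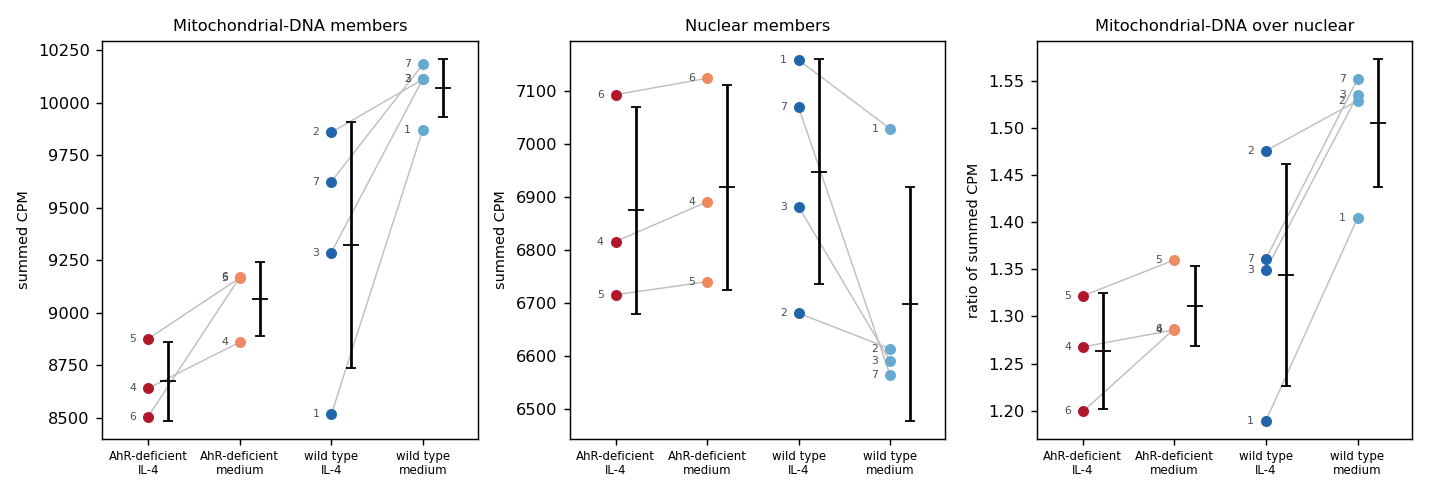
Summed CPM of the 10 mitochondrial-DNA members (left), of the 86 nuclear members (middle) and their ratio (right) in each of 14 libraries; points are libraries labelled by number, grey lines join IL-4 and medium libraries of 1 number, and black marks are group means ± SD. The axes do not start at 0. The ratio is lower with IL-4 in all 7 pairs, and the AhR-deficient medium libraries (1.29 to 1.36) lie below the wild-type ones (1.40 to 1.55).

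In wild-type monocytes, IL-4 changed a minority of nuclear members, mostly upward. By edgeR's quasi-likelihood test with Benjamini-Hochberg adjustment over 14754 genes, 20 of 86 nuclear members rose and 4 fell at an adjusted p under 0.05, and 62 did not pass. Across all genes tested 35.9% were called, 19.4% up and 16.5% down, so the upward share of the nuclear members, 20 of 86, was near that of all genes and the downward share was smaller. Their median log2 change was 0.08, beside 0.01 over all genes. Of the 10 mitochondrial members 0 rose and 1 fell, with a median log2 change of -0.10. With the title numbers as a block, 28 nuclear members rose and 6 fell, and 4 mitochondrial members fell. The block called 42.7% of all genes, 22.8% up and 19.9% down. Without both libraries of number 7, a setting chosen after seeing the data, 8 nuclear members rose and 3 fell and no mitochondrial member was called, where 28.2% of all genes were called, 15.3% up and 12.9% down. Ndufaf4, Ndufa8, Uqcrc1, Ndufaf7 and Cox7a2l remained called.

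Complexes were assigned from gene names, which puts Ndufa4 under complex I by its name alone. Of the 35 nuclear subunits so assigned to complex I, 10 rose and 1 fell, 31.4% called, which was below the 35.9% of all genes. Of 8 complex I assembly factors 4 rose and 1 fell (62.5% called), and of 9 complex III members 3 rose and 1 fell (44.4%), both counts of few genes. Complex IV had 1 up and 1 down of 12, complex V 2 up of 16, and complex II, the one complex with no mitochondrially encoded subunit, had 0 of 4 called and log2 changes between 0.01 and 0.12. The block called 2 complex II members upward, Sdha and Sdhc (adjusted p = 0.019 and 0.032).

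**Figure D3:**
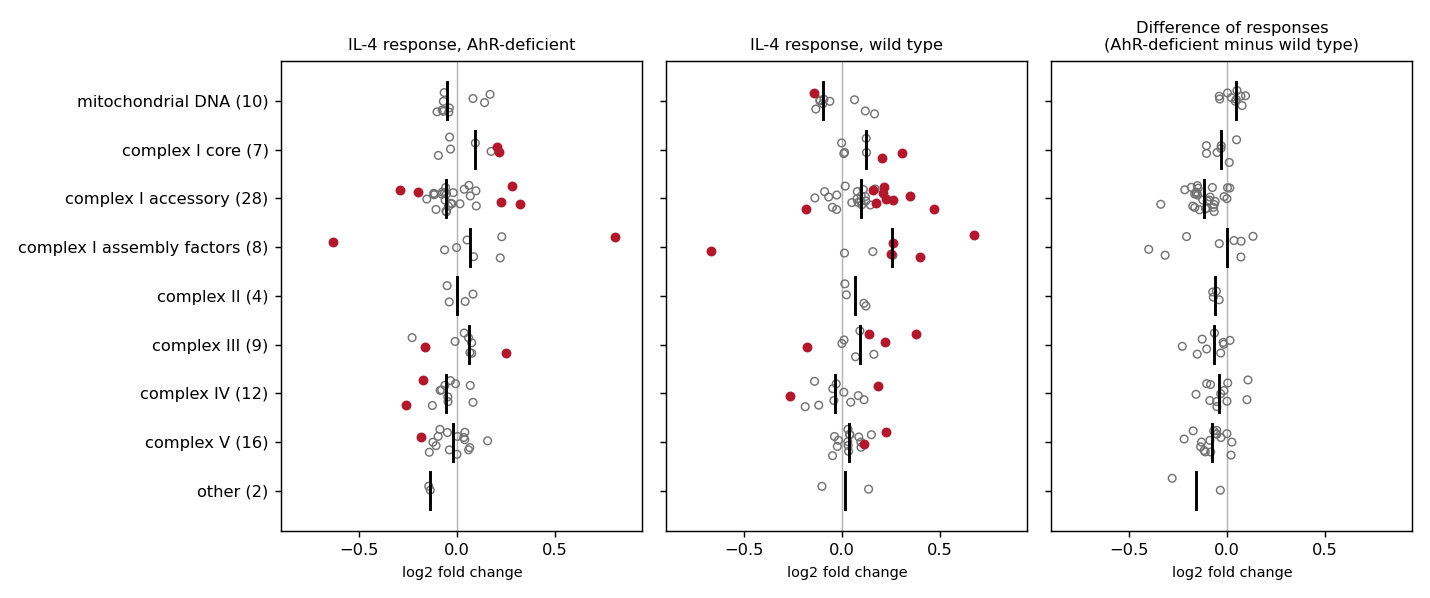
Log2 fold change of each member by class (rows, number of members in parentheses) for IL-4 against medium in AhR-deficient cells (left) and wild-type cells (middle), and the difference of the 2 responses (right); filled red points passed an adjusted p under 0.05, open points did not, and black bars are class medians. The accessory subunits of complex I have medians of -0.05 (left) and 0.10 (middle), and no point passed in the right panel.

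The largest increase was in Ndufaf4, a complex I assembly factor (chr4:24898083-24905001, plus strand). It stood at 9.56, 8.30, 9.27 and 10.6 CPM with IL-4, against 6.46, 5.21, 6.49 and 5.39 CPM in medium. The groups did not overlap, and the log2 change was 0.68 ± 0.10 (SE, adjusted p = 9.5e-05 by edgeR). Ndufa8, an accessory subunit of complex I with twin cysteine motifs (chr2:36036326-36049406, minus strand), stood at 49.6, 44.0, 48.6 and 46.5 CPM with IL-4, against 37.7, 32.4, 34.9 and 31.1 CPM in medium. Its groups were also apart, with a log2 change of 0.47 ± 0.06 (SE, adjusted p = 3.5e-05 by edgeR). Uqcrc1, a core protein of complex III (chr9:108936633-108949623, plus strand), had 229, 219, 229.9 and 227 CPM with IL-4, against 179, 168, 175 and 173 CPM in medium. Every IL-4 library was above every medium library, and the log2 change was 0.38 ± 0.04 (SE, adjusted p = 6.8e-06 by edgeR).

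Log2 changes of the other wild-type increases reached at most 0.40. In complex I these were Ndufa12 (log2 change 0.35), Ndufs7, which carries an iron-sulphur cluster (0.31), Ndufb4 (0.26), Ndufab1, the mitochondrial acyl carrier protein (0.22), Ndufs1, another iron-sulphur subunit (0.21), Ndufc1, Ndufv3, Ndufs6 and Ndufa9. Among the assembly factors Ndufaf8 (0.40), Ndufaf1 (0.26) and Ndufaf3 (0.25) also rose. In complex III the haem protein Cyc1 (0.22) and the Rieske protein Uqcrfs1 (0.14) rose. Cox6a1 of complex IV (0.19), Atp5g1, which encodes the membrane ring subunit of the ATP synthase (0.23), and the catalytic Atp5b (0.11) complete the 20. Over all 86 nuclear members, 14 had every IL-4 library above every medium library and 5 had every one below, against 18.4% and 14.9% of all genes, and 0 of the 10 mitochondrial members had groups apart.

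Decreases were led by Ndufaf7, a methyltransferase that acts in complex I assembly (chr17:78937136-78948052, plus strand). It had 43.9, 39.6, 42.1 and 44.2 CPM with IL-4, against 64.0, 69.0, 69.4 and 68.1 CPM in medium. No library of one group reached the other, and the log2 change was -0.67 ± 0.06 (SE, adjusted p = 1.8e-06 by edgeR). Cox7a2l, known from assembly of respiratory supercomplexes (chr17:83501918-83517330, minus strand), had 166, 155, 173 and 169 CPM with IL-4, against 204, 191, 195 and 206 CPM in medium, a log2 change of -0.27 ± 0.04 (SE, adjusted p = 0.00023 by edgeR). Uqcrh, the hinge protein of complex III, and Ndufa6, an accessory subunit of complex I, fell by 0.18 and 0.18 on the log2 scale. All 4 were lower with IL-4 in 4 of 4 pairs, with no overlap of groups. The opposite changes of Ndufaf4 and Ndufaf7 were thus the extremes of the whole nuclear set.

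Among mitochondrial members in wild-type cells, mt-Nd4, a membrane subunit of complex I with 60.8% of its windows shared, fell. It had 551, 632, 575 and 597 CPM with IL-4, against 655, 634, 623 and 686 CPM in medium, and the log2 change was -0.14 ± 0.05 (SE, adjusted p = 0.035 by edgeR). The groups overlapped through number 2, whose pair differed least. Under the replicate block mt-Nd2 (adjusted p = 0.039), mt-Co1 (0.040) and mt-Cytb (0.034) were called down too. Without wild-type IL-4 library 1, 3 or 7, or wild-type medium library 7, no mitochondrial member was called, whereas 5 were called without IL-4 library 2 and 2 without medium library 3. The larger mitochondrial ribosomal RNA, mt-Rnr2, which lies outside the member rule, was at 355 ± 22 CPM with IL-4 and 419 ± 12 CPM in medium (SD, n = 4 each; log2 change -0.24, adjusted p = 0.0044 by edgeR).

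**Figure D4:**
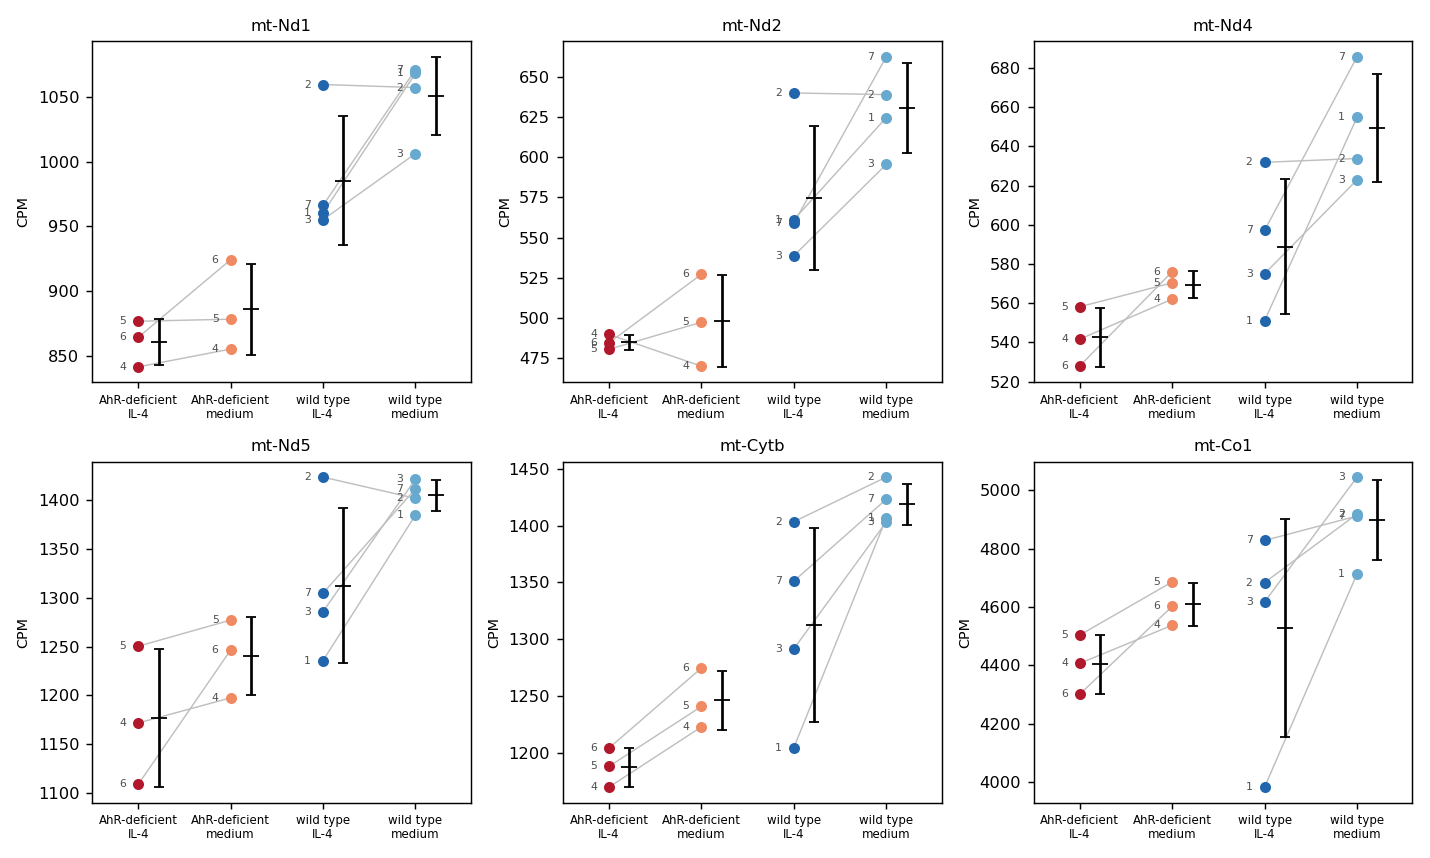
CPM of the 6 abundant mitochondrial members in each of 14 libraries; points are libraries labelled by number, grey lines join libraries of 1 number, and black marks are group means ± SD. The axes do not start at 0. For mt-Nd2 all AhR-deficient libraries (469.7 to 527) lie below all wild-type ones (539 to 663).

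In AhR-deficient monocytes the counts of nuclear members called up and down were equal. Of the 86, 7 rose and 7 fell, with 72 not passing, where 29.5% of all genes were called (15.4% up, 14.2% down). The median log2 change was -0.03, beside -0.01 over all genes. Of the 10 mitochondrial members 0 were called by edgeR, with 0 at an unadjusted p under 0.05 and 0 under the replicate block. Among the 14754 genes tested, 5664 were at an unadjusted p under 0.05. With the block, 9 nuclear members rose and 9 fell, where 36.2% of all genes were called, 18.4% up and 17.8% down. Every IL-4 library was above every medium library in 12 nuclear members and below in 14, and below in 3 mitochondrial members, against 22.3% and 21.4% of all genes. Called nuclear members numbered 10 without medium library 5, 9 without medium library 4 or IL-4 library 6, and 8 without medium library 6 or IL-4 library 4 or 5.

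Ndufaf4 again led, at 10.7, 11.5 and 10.2 CPM with IL-4, against 5.63, 6.70 and 6.18 CPM in medium (log2 change 0.81 ± 0.11 SE, adjusted p = 9.0e-05 by edgeR). Ndufa8 had 42.8, 45.4 and 47.1 CPM with IL-4, against 36.7, 35.6 and 35.9 CPM in medium (log2 change 0.32). Uqcrc1 had 223, 221 and 240.1 CPM with IL-4, against 195, 184 and 195 CPM in medium (log2 change 0.25). All 3 kept the groups apart. Ndufa12 (0.28), Ndufab1 (0.22), Ndufs1 (0.22) and Ndufs7 (0.20) complete the 7 that rose, and all 7 also rose in wild-type cells, where they are 35% of the 20.

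On the downward side, Ndufaf7 had 47.3, 40.8 and 41.3 CPM with IL-4, against 71.7, 60.3 and 69.1 CPM in medium (log2 change -0.64 ± 0.07 SE, adjusted p = 1.8e-05 by edgeR). Cox7a2l had 152, 159 and 158 CPM with IL-4, against 187, 189 and 188 CPM in medium (log2 change -0.26). Uqcrh and Ndufa6 fell as well, by 0.17 and 0.20 on the log2 scale, so that all 4 decreases of wild-type cells were called here, 57.1% of the 7. The other 3 were Ndufa2 of complex I (-0.29), Atp5g2, a second gene for the ring subunit of the ATP synthase (-0.18), and Cox4i1, a regulatory subunit of complex IV (-0.17). In wild-type cells these had log2 changes of -0.14, -0.05 and -0.12 with adjusted p of 0.18, 0.48 and 0.063 by edgeR. Of Atp5g2's 100-base windows 34.7% occur in pseudogene transcripts, so its value is uncertain. Smaller shares of windows occur in transcripts of other genes for other named nuclear members. Among these are Cox7c (16.2%), Ndufb4 (16.0%), Ndufa12 (11.4%), Ndufs3 (8.40%), Cox7a2l (7.77%) and Ndufab1 (6.96%).

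Members with an alternative isoform divided between called and not called. The third gene for the ring subunit, Atp5g3, had log2 changes of 0.04 in AhR-deficient and 0.10 in wild-type cells (adjusted p = 0.64 and 0.12 by edgeR). In complex IV, Cox7a2, the isoform related to Cox7a2l, had log2 changes of -0.06 and -0.03 (adjusted p = 0.45 and 0.68 by edgeR), and Cox6b1 and Cox6b2 had -0.08 and -0.03 in AhR-deficient cells and 0.01 and -0.14 in wild-type cells, none of them called. Ndufa4 had -0.06 and 0.02, also not called. Core subunits of complex I that missed the threshold included Ndufs3, with log2 changes of 0.17 in AhR-deficient and 0.13 in wild-type cells (adjusted p = 0.055 and 0.096 by edgeR), and the flavoprotein subunit Ndufv1, with -0.10 and 0.01 (adjusted p = 0.20 and 0.90).

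**Figure D5:**
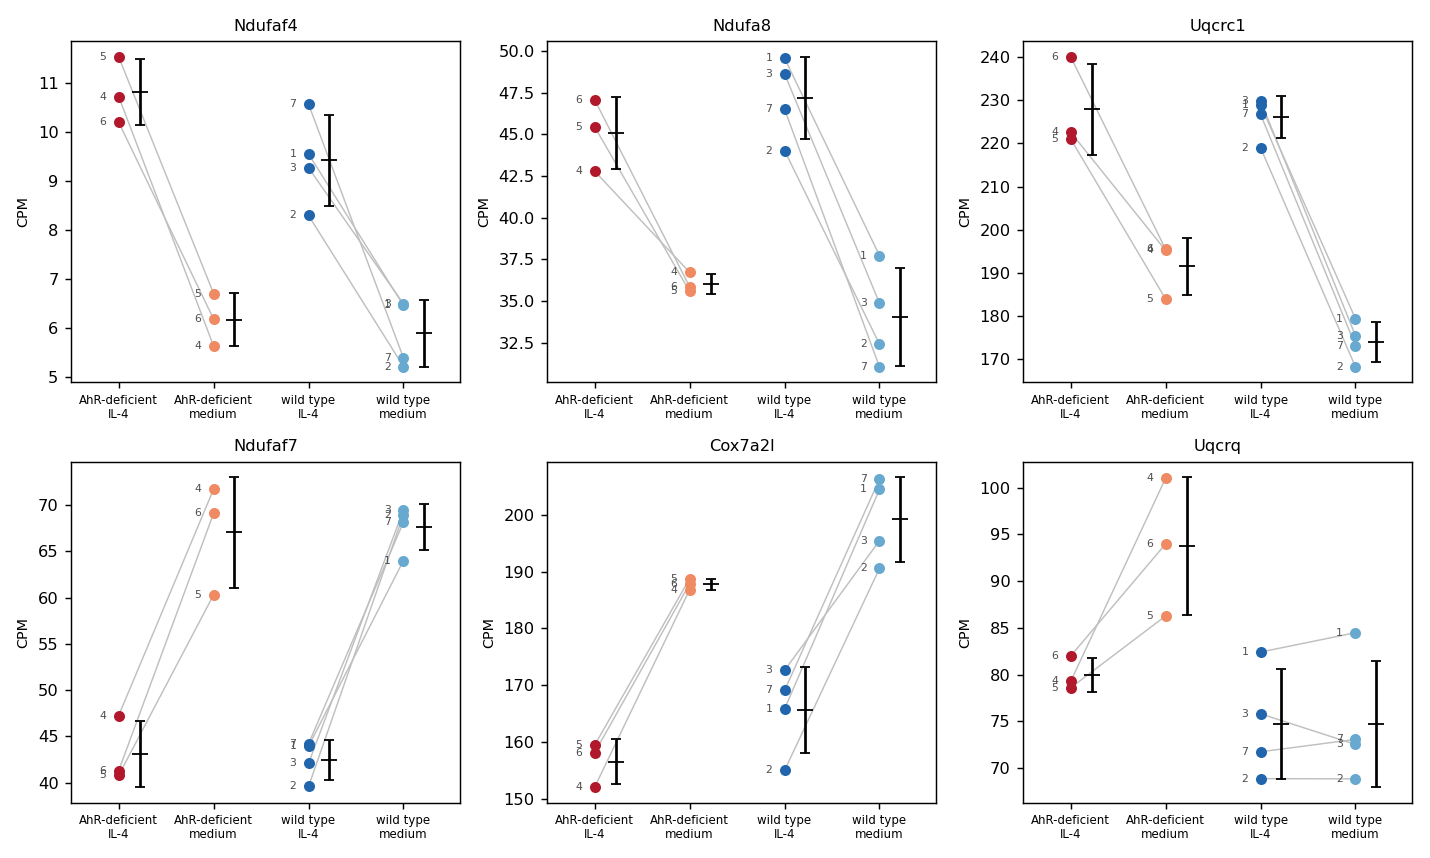
CPM of 6 nuclear members in each of 14 libraries; points are libraries labelled by number, grey lines join libraries of 1 number, and black marks are group means ± SD. The axes do not start at 0. Ndufaf4, Ndufa8 and Uqcrc1 are higher and Ndufaf7 and Cox7a2l lower with IL-4 in all 7 pairs, whereas Uqcrq is high in AhR-deficient medium libraries (86.3 to 101).

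The difference between the 2 responses was tested directly as an interaction of genotype and IL-4. It was called for 0 of the 96 members and 0% of all genes, by edgeR with or without the block; at an unadjusted p under 0.05 there were 6 nuclear members, 0 mitochondrial members and 558 genes. As a description, the response was lower in AhR-deficient than in wild-type cells in 72 of 86 nuclear members (median log2 difference -0.07), and in 53.5% of all genes (median -0.01). Among the 28 members assigned by name to the accessory subunits of complex I it was lower in 26. The widest differences were in Ndufaf8 (-0.40 ± 0.18 SE), Ndufb4 (-0.34 ± 0.12) and Ndufaf3 (-0.32 ± 0.12).

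For Ndufaf8 the genotypes were further apart in medium than with IL-4. Ndufaf8 had 7.46, 7.89 and 9.11 CPM with IL-4 against 7.89, 8.38 and 8.24 CPM in medium in AhR-deficient cells. In wild-type cells it had 8.21, 7.33, 8.85 and 8.66 CPM with IL-4 against 7.49, 6.92, 5.69 and 4.96 CPM in medium. With IL-4 the genotypes overlapped, and in medium every AhR-deficient library was above every wild-type library. Among mitochondrial members 8 of 10 had a log2 difference above 0, with a median of 0.05.

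In medium, AhR-deficient and wild-type monocytes differed in more mitochondrial than nuclear members as a share of each set. Of 10 mitochondrial members 4 were lower in AhR-deficient cells and 0 higher, and of 86 nuclear members 2 were higher and 0 lower. Across all genes 8.11% were called, 4.16% up and 3.95% down. For 6 of the 10 mitochondrial members every AhR-deficient library was below every wild-type library, which held for 9.45% of all genes. Of the nuclear members 10 were apart upward and 1 downward, against 10.5% and the same 9.45% of all genes. The median log2 difference was -0.18 for mitochondrial and 0.05 for nuclear members.

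The widest called difference was in mt-Nd2, another membrane subunit of complex I. It had 469.7, 497 and 527 CPM in AhR-deficient libraries, against 625, 639, 596 and 663 CPM in wild-type ones, a log2 difference of -0.34 ± 0.06 (SE, adjusted p = 0.011 by edgeR). For mt-Nd1 the values were 855, 878 and 924 CPM in AhR-deficient libraries, against 1068, 1057, 1006 and 1071 CPM in wild-type ones (log2 difference -0.25, adjusted p = 0.014 by edgeR). Neither gene's groups overlapped. The other 2 called were mt-Nd4 (-0.19, adjusted p = 0.043) and mt-Cytb (-0.19, adjusted p = 0.040), by the same edgeR test. With mt-Co1, the most abundant member, the log2 difference was -0.09 (adjusted p = 0.39).

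The 4 mitochondrial calls rest on the medium libraries as a set. Without AhR-deficient library 4 none was called, without AhR-deficient library 5 or 6 or wild-type library 1, 2 or 7 there were 2, and without wild-type library 3 there were 4. A fit on the 2 medium groups alone called none. Ribosomal RNAs from the same mitochondrial DNA had log2 differences of -0.04 (mt-Rnr2, adjusted p = 0.77) and -0.07 (mt-Rnr1, adjusted p = 0.64). Summed neutrophil markers, at 419 to 769 CPM in AhR-deficient and 476 to 1177 CPM in wild-type medium libraries, and eosinophil and basophil markers, at 59.5 to 204 and 119 to 356 CPM, overlapped between genotypes; their part in the result was not tested.

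The nuclear members higher in AhR-deficient cells in medium were both in complex III. Uqcrq, a small subunit next to cytochrome b (chr11:53427922-53430831, minus strand), had 101, 86.3 and 94.0 CPM in AhR-deficient libraries, against 84.5, 68.9, 72.5 and 73.1 CPM in wild-type ones. The AhR-deficient libraries were all above the wild-type ones, with a log2 difference of 0.33 ± 0.08 (SE, adjusted p = 0.024 by edgeR). Cyc1 (chr15:76343523-76346260, plus strand) had 90.9, 84.2 and 94.6 CPM, against 81.3, 77.6, 75.8 and 78.6 CPM in wild-type libraries (log2 difference 0.20, adjusted p = 0.037 by edgeR). Both lost the call without AhR-deficient library 4 or 6 or wild-type library 2, and Cyc1 also without wild-type library 3.

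With IL-4, where 1.62% of all genes were called between genotypes, 0 of the 96 members were called by edgeR. At an unadjusted p under 0.05 there were 6 of 10 mitochondrial and 5 of 86 nuclear members, beside 2715 of the 14754 genes tested. The mitochondrial members again had log2 differences mostly below 0 (8 of 10, median -0.13), led among the abundant ones by mt-Nd2 (-0.25, adjusted p = 0.062 by edgeR) and mt-Nd1 (-0.20, adjusted p = 0.064). mt-Nd2 had 489.5, 480.3 and 484 CPM in AhR-deficient libraries, against 561, 640.3, 539 and 559 CPM in wild-type ones. Its groups did not overlap, as for 4 of the 10 mitochondrial members in that direction, against 8.91% of all genes. DESeq2 called 2 mitochondrial members in this comparison, for which its share of all genes called is not given here.

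The region upstream of the start site was available from RefSeq (GRCm38.p6) for 71 of the 86 nuclear members, in 76 windows of 250 bases, and was searched on both strands. The letters GCATGCGC, a part of the palindromic site of the factor NRF1, a regulator of respiratory genes, were in 9 member windows (11.8%), against 2.26% of all 32851 promoter windows. They stood upstream of Ndufaf4, Ndufa8, Ndufa6, Cox6a1, Sdhb, Atp5g2, Atp5k, Atp5l and Ndufa11, which include genes that rose, fell and did not pass. The letters CCGGAAGT, bound by the ETS factor GABPA, were in 3.95% of member and 2.88% of all windows. The YY1 letters AAGATGGCG were in 1.32% and 0.606%, and the ERR letters TCAAGGTCA in 1.32% and 0.387%. The spacing preferred by STAT6, the factor that IL-4 activates, TTC and GAA with 4 bases between, was in 3.95% of member and 5.85% of all windows, and with 3 bases between in 7.89% and 7.02%.

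The windows of the strongest riser in each genotype, of Ndufa8 and of the strongest faller show where such letters lie; capitals mark matches to the NRF1 letters and to TTC and GAA with 3 bases between. In Ndufaf4 a pair of NRF1 matches on opposite strands overlaps. In Ndufa8 one NRF1 match ends at the start site and the other capitals are TTC to GAA matches. In Ndufaf7 none of the searched letters was found. The same held for the windows, not shown, of Uqcrc1, which rose, and of Cox7a2l, which fell.
Ndufaf4 (chr4:24897833-24898082, plus strand, GRCm38.p6): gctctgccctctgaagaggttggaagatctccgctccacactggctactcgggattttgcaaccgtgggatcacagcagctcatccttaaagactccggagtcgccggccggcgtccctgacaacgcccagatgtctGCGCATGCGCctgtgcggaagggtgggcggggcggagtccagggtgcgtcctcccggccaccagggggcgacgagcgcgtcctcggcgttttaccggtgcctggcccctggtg
Ndufa8 (chr2:36049339-36049588, minus strand, GRCm38.p6): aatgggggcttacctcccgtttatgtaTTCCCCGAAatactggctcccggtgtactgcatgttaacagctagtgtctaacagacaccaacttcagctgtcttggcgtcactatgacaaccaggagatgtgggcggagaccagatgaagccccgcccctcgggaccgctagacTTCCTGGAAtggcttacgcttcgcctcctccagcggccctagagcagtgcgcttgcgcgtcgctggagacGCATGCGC
Ndufaf7 (chr17:78936885-78937134, plus strand, GRCm38.p6): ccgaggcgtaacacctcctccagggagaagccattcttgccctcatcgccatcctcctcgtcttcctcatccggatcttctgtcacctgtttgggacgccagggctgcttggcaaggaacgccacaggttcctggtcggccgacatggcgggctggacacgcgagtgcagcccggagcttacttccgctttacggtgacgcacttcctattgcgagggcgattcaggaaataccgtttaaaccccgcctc
A match is a run of letters and not a measured binding site.

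Genes that build, feed or regulate the chain but fall outside the member rule were read from 10 lists. The counts are to be set beside the shares of all genes called, 15.4% up and 14.2% down in AhR-deficient cells and 19.4% up and 16.5% down in wild-type cells; with 9 to 23 genes a list they are descriptions and single out no list. Of 9 tested regulators of respiratory genes, 2 rose and 1 fell in AhR-deficient cells and 4 rose and 0 fell in wild-type cells. Ppargc1b, the coactivator that drives mitochondrial gene programmes, had 13.3, 18.8 and 19.1 CPM with IL-4 against 0.193, 0.412 and 0.278 CPM in medium in AhR-deficient cells. It had 27.99, 25.3, 27.7 and 21.996 CPM with IL-4 against 0.343, 0.413, 0.242 and 0.344 CPM in medium in wild-type cells. The log2 change was 5.83 ± 0.22 in AhR-deficient and 6.26 ± 0.19 in wild-type cells (SE, adjusted p = 2.8e-10 and 1.7e-11 by edgeR). Its relative Pprc1 rose by 0.71 and 0.63 on the log2 scale in AhR-deficient and wild-type cells, and Gabpb1 fell in AhR-deficient cells (-0.31).

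Machinery for mitochondrial DNA copying and transcription had 5 of 16 genes up and 0 down in AhR-deficient cells, and 4 up and 0 down in wild-type cells. Of all genes, 15.4% were called up in AhR-deficient cells and 19.4% in wild-type cells. Polrmt, the polymerase that transcribes mitochondrial DNA, rose by 0.36 on the log2 scale in both. Tfam, which packages that DNA, had log2 changes of 0.03 and 0.06 and did not pass. Mitochondrial RNA processing and stability had 6 of 16 up and 0 down in AhR-deficient cells, and 5 up and 0 down in wild-type cells, among them Elac2, which cuts tRNAs out of the long transcript (0.56 and 0.49), and Tbrg4, an RNA-binding FASTK protein (0.48 and 0.51). With the numbers as a block, RNA processing had 4 up and 1 down in AhR-deficient cells.

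Assembly genes outside the rule moved both ways. For complex I, 2 of 11 rose and 1 fell in AhR-deficient cells, and 3 rose and 1 fell in wild-type cells, led by Ecsit (0.57 and 0.59). For complexes II, III and V, 1 of 14 rose and 1 fell in AhR-deficient cells and 2 rose and 1 fell in wild-type cells. Sdhaf1, a complex II assembly factor, fell (-0.86 and -0.54) and Lyrm7, which matures the Rieske protein, rose (0.71 and 0.59). For complex IV, 2 of 20 rose and 0 fell in AhR-deficient cells and 2 rose and 2 fell in wild-type cells, Cox10 of haem synthesis rising in both (0.26 and 0.31).

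Electron carriers and feeders had 4 of 23 up and 3 down in AhR-deficient cells, near the shares of all genes, and 9 up and 3 down in wild-type cells. Coq3 and Coq5 of coenzyme Q synthesis rose in both genotypes, Coq8a (-0.89 and -0.67) and Gpd2, the glycerol phosphate shuttle enzyme (-0.41 and -0.45), fell in both, and cytochrome c, Cycs, rose in wild-type cells (0.18). Proton leak and nucleotide carriers had 1 of 11 up and 1 down in AhR-deficient cells, and 2 up and 1 down in wild-type cells. Cristae and cardiolipin genes had 3 of 13 up in AhR-deficient cells and 2 up in wild-type cells, with the chaperonin Hspd1 at 0.40 in both. Of 16 genes for dynamics, import and removal, 6 rose and 1 fell in AhR-deficient cells and 7 rose and 1 fell in wild-type cells. The import components Tomm40, Tomm70a and Timm23 rose in both (0.34 to 0.44), and the mitophagy receptor Bnip3l fell (-0.40 and -0.64).

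Some members overlap other annotated genes, and reads shared between them were not measured. Of the 96 members, 24 overlap another gene at 1 CPM or more, 4 of them on the same strand; the kit keeps strand, but the labels do not state the strand setting of the counting. Among named members these include Ndufs1 with Ino80dos, Ndufaf3 with Impdh2, Ndufa2 with Tmco6 and Cox4i1 with Emc8.

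Sums of cell type markers differed with IL-4. Of the listed markers, 10 of 10 for monocytes, 2 of 6 for B cells and 5 of 6 for dendritic cells were above 1 CPM. The B cell sum thus comes from few genes. Summed monocyte markers were at 13778 to 15364 CPM with IL-4 against 21418 to 24486 CPM in medium in AhR-deficient cells, and at 13754 to 14850 against 21265 to 23744 CPM in wild-type cells. Summed B cell markers were at 208 to 252 CPM with IL-4 against 156 to 213 CPM in medium in AhR-deficient cells, where the groups overlapped, and at 229 to 297 against 143 to 181 CPM in wild-type cells. Summed dendritic cell markers were at 147 to 174 CPM with IL-4 against 97.2 to 141 CPM in medium in AhR-deficient cells and at 120.1 to 146 against 74.0 to 112 CPM in wild-type cells, with no overlap in either genotype. Their part in the IL-4 responses of members was not tested.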

How the data were processed

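Messenger RNA of 14 mouse monocyte cultures was sequenced as 100-base read pairs from a stranded kit, per the labels' protocols. The deposited values are raw counts per Ensembl gene made by the authors; FastQC, STAR and build mm10 are named in the submitters' processing notes, with no counting tool or strand setting stated there. Of 55487 rows, 55394 matched GENCODE M21 (GRCm38) IDs without their version. Genes passing edgeR's filterByExpr (14754) were scaled by TMM and fitted in edgeR 4.0.16 (R 4.3.3) with 1 mean per group over all 14 libraries and 10 residual degrees of freedom; calls are at a Benjamini-Hochberg adjusted p under 0.05. CPM are TMM-scaled, except the levels set against the 1 CPM minimum and those of Ahr, Xist and Ddx3y, which are scaled to total counts only. SE is the size of the log2 change divided by the square root of F. Alternatives were DESeq2 1.42.0, limma 3.58.1, other filters and scalings, left-out libraries and a replicate block. The title numbers were taken as pairs because deviations of same-numbered libraries from their group means correlated over 9374 genes. The r was 0.519 to 0.744 except in number 7, where it was 0.165, so that pair is the least supported. The rule for named genes took the mitochondrial members, isoform pairs, up to 4 members per class and per list with the smallest p in each IL-4 response, and between genotypes up to 5 called members or 3 that failed. Outside it, Atp5a1, Atp5k, Atp5l, Ndufa9, Ndufa11, Ndufaf1, Ndufc1, Ndufv3, Tfam, Cycs and Gpd2 were named after their values were seen. Members and lists were chosen with earlier results of these data known. The fits were tested on simulated data for the wild-type IL-4 response, with changes placed in genes drawn from all those tested. Of log2 changes of 0.5, 51% were recovered, and of changes of 1, 77%, with 2 false calls. A gene that did not pass may thus still have changed. Count depth limits precision chiefly for the members near 1 CPM.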

Additional observations from a re-analysis of the deposited data

Results flagged for a closer look

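Among 118 groups of 4 wild-type libraries examined, 7 had 1 library far from the other 3, a share near the 1 in 20 that chance gives. The groups are drawn from the same libraries and are not independent of each other. Wild-type medium library 1 was the library apart in 5 of the 7. Its summed nuclear level was 7029 CPM, the other 3 being at 6563 to 6613 CPM, and its mitochondrial to nuclear ratio was 1.40, the others being at 1.53 to 1.55. In the same library Cox4i1 stood at 299 CPM (267 to 271 in the others), Ndufa6 at 85.3 CPM (72.7 to 73.4) and Ndufs3 at 45.4 CPM (39.5 to 39.9). Among wild-type IL-4 libraries, Cox7c was at 61.9 CPM in library 1 (51.9 to 53.5 in the others) and mt-Nd1 at 1060 CPM in library 2 (955 to 966).

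The IL-4 difference of the summed nuclear level had opposite signs by genotype, below 0 in 3 of 3 AhR-deficient pairs (mean log2 difference -0.0092) and above 0 in 4 of 4 wild-type pairs (0.0527). The median log2 change over all genes was -0.0091 in AhR-deficient and 0.0089 in wild-type cells. The AhR-deficient sum thus hardly moved against the typical gene. The difference between the 2 responses, -0.0619 on the log2 scale, was not tested for this sum, and the sign of the AhR-deficient value changed with the scaling.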

How the results depend on the processing

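For nuclear members in the wild-type IL-4 response (24 called), no count filter gave 15, a random replicate block 37 and leaving out number 7 (chosen after seeing the data, as for numbers 1 and 2) 11, and leaving out 1 library gave 16 to 31. For mitochondrial members there (1 called), upper quartile scaling and a filter of 1 CPM in 3 libraries each gave 2, the DESeq2 Wald test 3, the fixed and random replicate blocks 4 each, and no filter, a fit on the 2 groups alone, and leaving out number 1, number 7 or numbers 1 and 2 gave 0; leaving out 1 library gave 0 to 5. For nuclear members in the AhR-deficient response (14 called), no filter gave 8 and leaving out 1 library 8 to 10. For AhR-deficient against wild-type cells in medium, nuclear calls (2) became 6 with DESeq2, 1 with no filter or without number 1 or 7, and 0 with the 2 groups alone or without numbers 1 and 2, over 0 to 3 without 1 library. Mitochondrial calls there (4) became 2 with no filter or without number 7 and 0 with the 2 groups alone or without numbers 1 and 2, over 0 to 4 without 1 library. With IL-4, mitochondrial calls between genotypes (0) became 2 with upper quartile scaling or DESeq2 and 1 with the random replicate block, over 0 to 1 without 1 library. The summed nuclear level in AhR-deficient cells, -0.01 on the log2 scale with IL-4, was 0.0409 as a share of raw totals and ran from -0.0320 to 0.0122 without 1 library, positive without medium library 6 (0.0122) or IL-4 library 5 (0.0076). The share of all genes called is given here only for the main fit, the fixed replicate block and the wild-type IL-4 response without number 7. Under the other settings the counts cannot be set against that share and are no result about the members. The causes were not tested, except that no filter tests more genes and left-out libraries leave fewer samples. The fixed replicate block could not be fitted between genotypes, which share no number. For the mean summed differences, pairing by number as a replicate block gives the same values by construction and tests nothing. No member named here changed sign past its threshold under these settings. Depth limits the members near 1 CPM, and shared sequence limits mt-Co2, mt-Co3 and mt-Atp6 and, in part, mt-Nd4 and mt-Co1.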
